A study of Drosophila melanogaster with 6 samples.

Results

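The widest span of labelled grainy head (grh) activity in this study lay between whole stage 16 Drosophila melanogaster embryos that overexpressed grh and embryos mutant for it, and this comparison is described here gene by gene. It takes the 2 arrays titled grh overexpression (genotype 69B>grh, an overexpression driven by the GAL4 line 69B) and the 2 titled grh mutant (allele grhB37), which are 4 of the 6 arrays of the study. The other two were made from wild type embryos of the strain w1118. Their values stand beside the others for orientation, and they add to the estimate of the spread. All embryos were of stage 16, near the time when the larval cuticle is laid down. Of 18769 probe sets that were not array controls, the 9088 with a value of at least 4 on the log2 scale on at least 2 of the 4 arrays were tested, and 9681 were not.

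Grh is a transcription factor of surface epithelia. In the fly it is best known for its role in the epidermis, where it is needed for a strong and pigmented cuticle, for junctions that seal the tissue and for the response to wounds. The cuticle itself is a layered matrix of chitin and protein that epidermal cells secrete on their outer face, and enzymes then cross-link and tan it with compounds made from tyrosine. GAL4 line 69B is widely used to drive genes in the embryonic epidermis, one of the tissues where grh is normally active.

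The probe set that read grh above the minimum had log2 values of 12.27 and 12.38 in grh overexpression and 9.05 and 9.02 in the arrays labelled grh mutant, against 7.36 and 7.45 in wild type. The overexpression arrays were the highest and the wild type arrays the lowest, and no group overlapped another. Between overexpression and mutant the log2 difference was 3.29 ± 0.05 (SE, n = 2 arrays each, limma adjusted p = 2.0e-13). The second grh probe set was under 4 on every array and was not tested, at 2.39 and 2.52 in grh overexpression and 3.52 and 3.54 in grh mutant. Nothing in the labels tells how allele grhB37 alters the transcript. The grh reading is therefore no check of the mutant label, and every direction below rests on that label.

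Each genotype has 2 replicates in the labels, with no word on separate collections of embryos. The p-values therefore weigh a difference against the spread of these arrays, possibly a technical one. A line with the driver but no added grh was not among the groups, and a common genetic background is not stated. Differences made by grh and by strain, driver or collection cannot be told apart. The hybridisation controls averaged 8.55 ± 0.20 in grh overexpression and 7.96 ± 0.14 in grh mutant (SD, n = 2), against 8.79 ± 0.09 in wild type. The 3' minus 5' reading of the Act5C control, a sign of RNA quality and labelling, was 2.74 ± 0.03 in grh overexpression and 2.20 ± 0.07 in grh mutant, while that of eIF4A was 1.05 ± 0.08 in grh overexpression and 1.04 ± 0.14 in grh mutant. The part of these control differences in the results was not tested.

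Most of the measured transcriptome differed between the 2 genotypes by more than the spread of the replicates. Of 9088 probe sets, limma called 86.8% at an adjusted p under 0.05, of which 3816 were higher (42.0% of those tested) and 4073 lower (44.8%). With a change of at least 2-fold added to the rule, 1666 were higher (18.3%) and 1692 lower (18.6%). The median absolute log2 difference between the genotypes was 0.705, against 0.0667 between the overexpression replicates and 0.0605 between the mutant replicates.

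The numbers of probe sets were nearly balanced at 2-fold, and the balance tilted toward higher values at larger sizes. At 4-fold or more 701 probe sets were higher and 472 lower, at 16-fold 154 were higher and 48 lower, and at 64-fold 30 were higher and 3 lower. Most of that tilt lay in probe sets that both mutant arrays read under 4, called dim here. Among the 8020 probe sets measured in both groups, 345 were higher and 324 lower at 4-fold, 45 were higher and 33 lower at 16-fold, and 7 were higher and 2 lower at 64-fold. A further 566 probe sets were dim in grh mutant and 502 were dim in grh overexpression. These passed the minimum through 1 group only, so their direction was fixed by the filter, and their size is given as a bound, the bright group's mean over the minimum of 4.

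**Figure D1:**
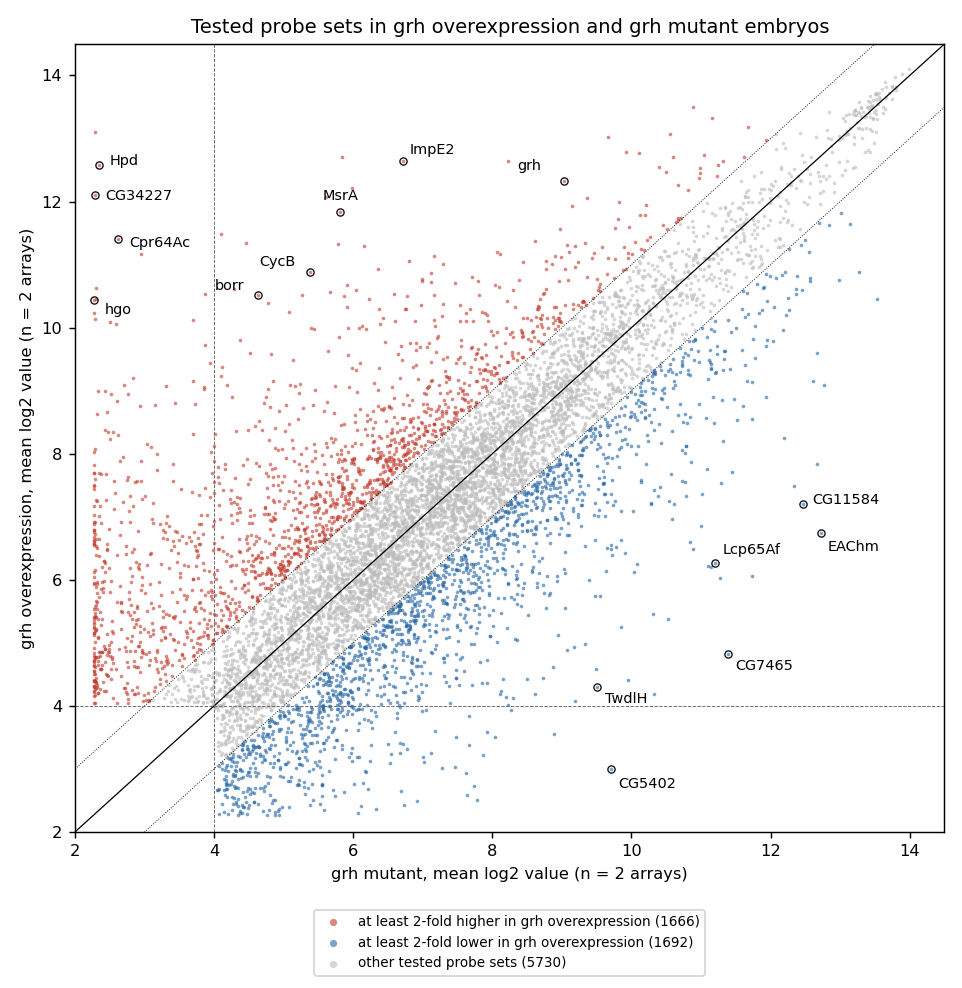
Mean log2 value of every tested probe set in grh overexpression (vertical axis) and grh mutant embryos (horizontal axis), n = 2 arrays each. Red marks the 1666 probe sets called at least 2-fold higher and blue the 1692 called at least 2-fold lower; dashed lines stand at the minimum of 4, dotted lines at 2-fold, and the vertical band of points at the left edge holds probe sets at the floor in grh mutant.

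At the high end, among genes measured in both groups, the 20 largest increases ran in log2 from 4.64 to 6.88, and every one had a limma adjusted p of 2.9e-13 or less. They held genes of cell division, of the ecdysone response and many genes named only by number. MsrA, the gene of a methionine sulfoxide reductase, which repairs oxidised protein, read 11.88 and 11.77 in grh overexpression, 5.90 and 5.72 in grh mutant and 8.16 and 8.01 in wild type, a difference of 6.02 ± 0.07 between the altered genotypes. ImpE2, found as an ecdysone-inducible gene, read 12.67 and 12.61 in grh overexpression, 6.66 and 6.77 in grh mutant and 5.14 and 5.07 in wild type. The groups did not overlap for either gene, and they ordered differently: wild type lay between the altered genotypes for MsrA and below both for ImpE2.

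CG9757 had the largest increase with both groups measured, at 11.41 and 11.27 in grh overexpression, 4.56 and 4.36 in grh mutant and 8.98 and 8.91 in wild type (log2 difference 6.88 ± 0.07). CG15282 was close behind at 12.67 and 12.74 in grh overexpression, 5.82 and 5.86 in grh mutant and 10.60 and 10.51 in wild type. CG2444 read 12.21 and 12.21 in grh overexpression, 5.95 and 6.0 in grh mutant and 4.48 and 4.57 in wild type. For CG9757 and CG15282 wild type stood nearer to grh overexpression, and for CG2444 it stood below grh mutant. The rest of the 20 were CG14107, CG14110, borr, ImpL1, CG17919, CycB, CG12880, CG3588, CycB3, CG5731, gfzf, CG31313, CG9427, CG15515 and hui.

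Among genes dim in grh mutant, Hpd had the largest bound. Hpd encodes 4-hydroxyphenylpyruvate dioxygenase, an early enzyme of tyrosine breakdown. It read 12.59 and 12.56 in grh overexpression, 2.36 and 2.32 in grh mutant and 4.96 and 5.15 in wild type. That made it at least 382-fold higher in grh overexpression. CG34227 was at least 275-fold higher and Cpr64Ac, which encodes a cuticle protein with a chitin-binding domain, at least 169-fold higher. The next bounds belonged to Fcp3C at 144-fold, the sulfotransferase gene St2 at 98.9-fold, the alkaline phosphatase gene Alp9 at 87.7-fold, hgo at 86.9-fold, the cytochrome P450 gene Cyp303a1 at 75.3-fold, CG13258 at 70.4-fold and Osi12 at 69.6-fold. Of these 10 genes, CG34227, Cpr64Ac, Fcp3C, Alp9, Cyp303a1 and CG13258 were under 4 in wild type as well, while Hpd, St2, hgo and Osi12 had wild type values above it.

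At the low end the 20 largest decreases with both groups measured ran in log2 from -6.56 to -4.20. CG7465 read 4.74 and 4.91 in grh overexpression and 11.37 and 11.40 in grh mutant, against 7.19 and 7.23 in wild type (log2 difference -6.56 ± 0.06, limma adjusted p = 1.0e-14). TwdlH, a member of the Tweedle family of cuticle proteins, read 4.38 and 4.21 in grh overexpression, 9.53 and 9.50 in grh mutant and 6.36 and 6.25 in wild type. Cpr49Ag, another cuticle protein gene, read 5.39 and 5.35 in grh overexpression, 10.51 and 10.53 in grh mutant and 8.73 and 8.61 in wild type. In all 3 the mutant arrays were the highest and the overexpression arrays the lowest, with wild type between them. The bZIP transcription factor gene Atf3 fell by 4.26, the mucin gene Muc26B by 4.28 and the larval cuticle protein gene Lcp65Af by 4.94 on the log2 scale.

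The others of the 20 were CG15023, EAChm, CG14453, CG4962, CG11584, CG33272, CG18649, CG14265, CG42319, CG12607, CG33160, CG2233, CG13705 and CG13314. CG33160 was above the minimum on only 1 of the 2 overexpression arrays. Among genes dim in grh overexpression, CG5402 had the largest bound. It read 3.07 and 2.91 in grh overexpression, 9.74 and 9.68 in grh mutant and 9.74 and 9.80 in wild type, at least 52.2-fold lower in grh overexpression, and wild type lay with the mutant. CG32237 was at least 29.5-fold lower. The glial gene ana, whose secreted product holds neuroblasts back from division, was at least 16.4-fold lower and read 3.84 and 3.18 in grh overexpression. CG33521, CG34290, CG6472, CG11131, CG12480, CG6738 and CG4835 followed, with bounds that ran down from 14.6-fold to 11.0-fold.

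Gene lists were then read against all genes, with 1 probe set a gene. Of 11982 genes on the array 7590 were tested, of which 19.1% were at least 2-fold higher and 17.5% at least 2-fold lower in grh overexpression, with a median log2 difference of -0.0015. At any size 43.1% were called higher and 43.6% lower. Of the 6736 genes measured in both groups 15.1% were higher and 15.6% lower at 2-fold. In the lists below, "higher" and "lower" mean called and at least 2-fold changed unless another size is given. Each list is described by its counts and median, with no test of the list. List medians take in the fitted differences of genes dim in 1 group, whose true size is not known.

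**Figure D2:**
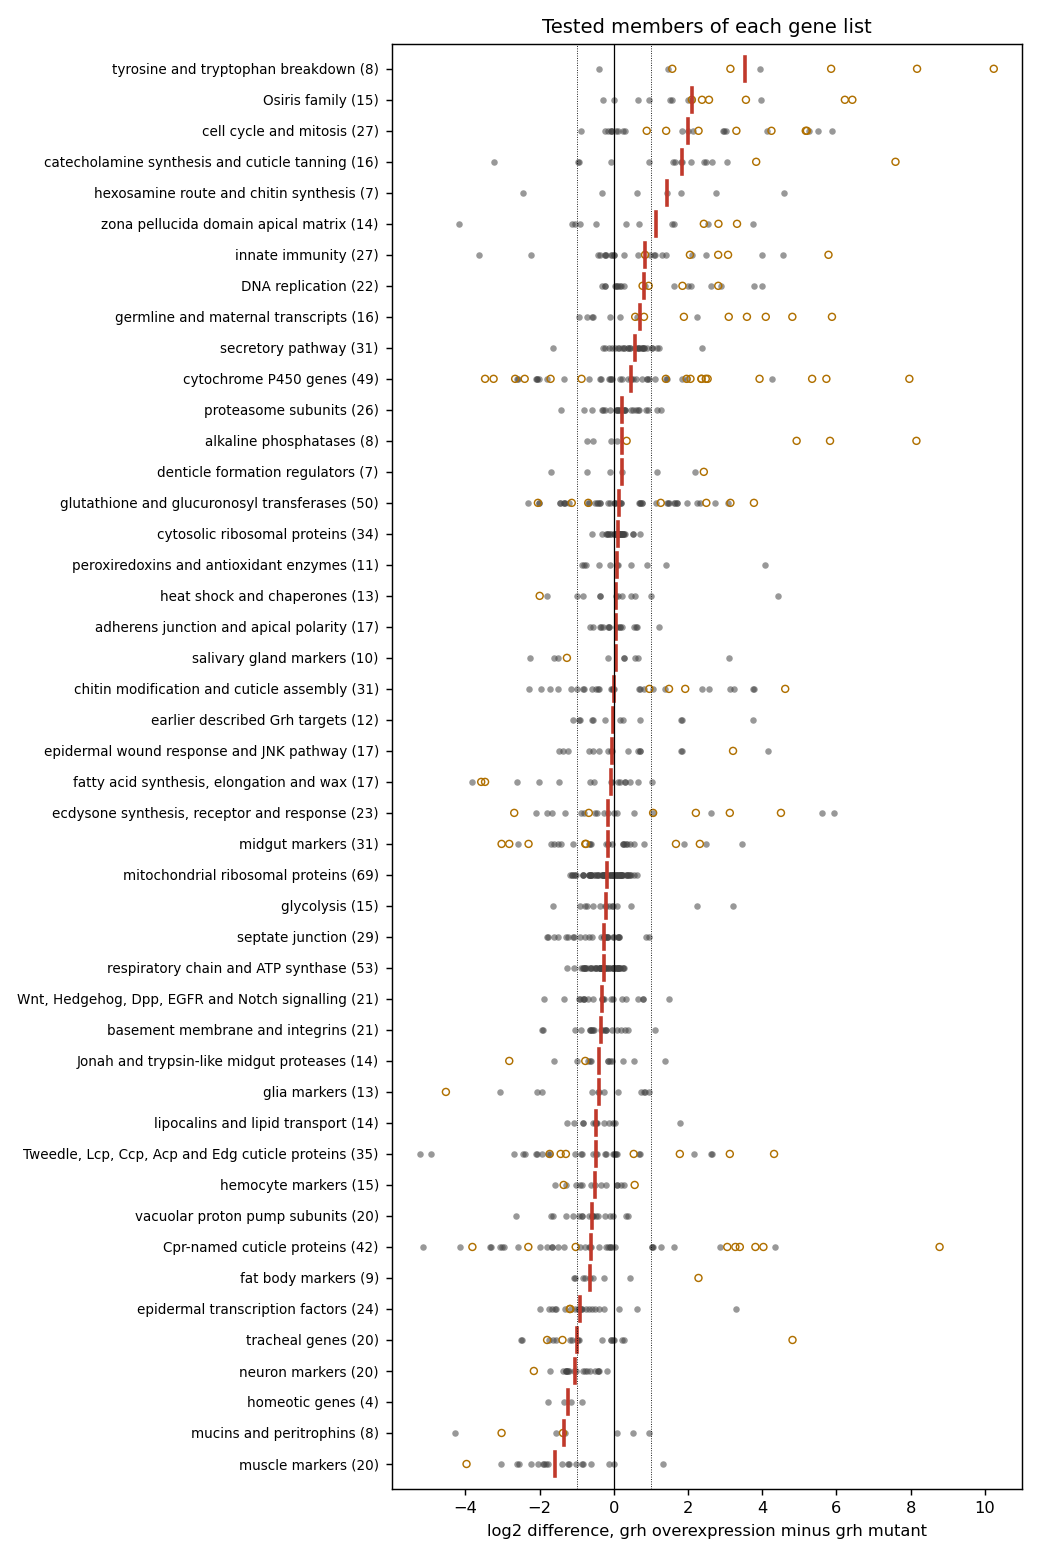
Log2 difference, grh overexpression minus grh mutant, of each tested member of the gene lists (number tested in brackets), in order of the list median, which a red bar marks. Grey points were measured in both groups and open orange points passed the minimum through 1 group only, so that their direction was fixed; tyrosine breakdown comes first with a median of 3.54, which takes in 5 open points and is 1.47 over its 3 grey ones, and muscle markers come last with -1.59.

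Most tested genes of tyrosine and tryptophan breakdown were higher. Of 10 on the array 8 were tested, and 7 were higher and none lower, with a median log2 difference of 3.54. Of the 8, however, 5 passed through grh overexpression only, and the median of the 3 measured in both groups was 1.47. Tyrosine is broken down in a chain in which Tat removes the amino group and Hpd, hgo, GstZ1 or GstZ2 and Faa act in turn. Besides Hpd, hgo (homogentisate dioxygenase) read 10.49 and 10.39 in grh overexpression, 2.27 and 2.27 in grh mutant and 4.38 and 4.07 in wild type. Faa, fumarylacetoacetase, the last enzyme, was measured in both and read 8.76 and 8.73 in grh overexpression, 4.70 and 4.91 in grh mutant and 6.55 and 6.46 in wild type, a difference of 3.94 ± 0.08 (limma adjusted p = 1.3e-12). For both genes the order was grh overexpression, wild type, grh mutant, with no overlap.

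The first enzyme gene read near the minimum. Tat read 4.23 and 4.35 in grh overexpression and 2.69 and 2.73 in grh mutant, against 4.20 and 4.15 in wild type, so grh overexpression and wild type lay just above the minimum and grh mutant below it. GstZ2 was at least 6.21-fold higher and GstZ1 rose by 1.47 on the log2 scale. KFase, kynurenine formamidase of tryptophan breakdown, was at least 53.0-fold higher. Kyat, a kynurenine aminotransferase, was the single member that fell, by 0.40.

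Tyrosine also feeds the catecholamines that harden and darken the cuticle. Of 16 tested genes of catecholamine synthesis and tanning 11 were higher and 1 lower, with a median of 1.83, and 2 of the 16 passed through grh overexpression only. The gene ple, tyrosine hydroxylase, was not above the minimum and was not tested. Pu, which makes the pterin cofactor that the hydroxylase needs, read 9.52 and 9.63 in grh overexpression, 7.68 and 7.84 in grh mutant and 7.52 and 7.53 in wild type. Ddc, dopa decarboxylase, read 10.63 and 10.60 in grh overexpression, 8.78 and 8.77 in grh mutant and 10.25 and 10.21 in wild type (log2 difference 1.84 ± 0.04). Its neighbour in function amd, also a decarboxylase of the cuticle, read 11.18 and 11.16 in grh overexpression, 8.10 and 8.12 in grh mutant and 9.66 and 9.62 in wild type. Grh overexpression was the highest group for all 3, and wild type lay between the others for Ddc and amd and slightly below grh mutant for Pu.

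Most later steps were higher too. The gene e (ebony), which joins beta-alanine to dopamine for a tan cuticle, rose by 2.49 ± 0.06 on the log2 scale, and stw (straw), a laccase that oxidises catechols in the cuticle, rose by 2.09 ± 0.06. Among the yellow family, yellow-d2 was at least 68.0-fold and yellow-e2 at least 4.79-fold higher, and yellow-d, yellow-b and yellow-f2 rose by 2.66, 1.66 and 1.60. The founding member y (yellow), needed for black pigment, went the other way, at 6.74 and 6.53 in grh overexpression, 9.88 and 9.83 in grh mutant and 8.93 and 8.90 in wild type. Its log2 difference was -3.22 ± 0.07 (limma adjusted p = 1.8e-12), and the groups did not overlap. The genes t (tan) and yellow-h also fell, by 0.95 and 0.93, under 2-fold.

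**Figure D3:**
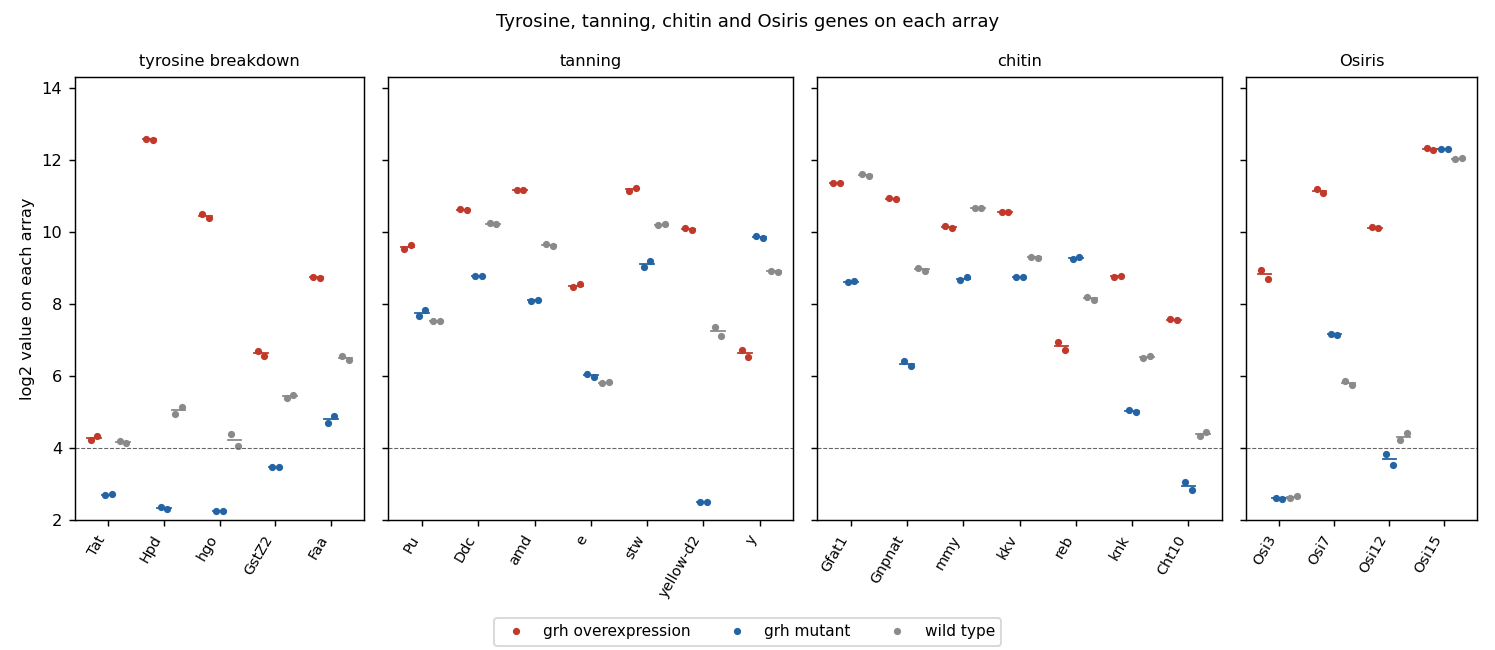
Log2 value on each array of genes of tyrosine breakdown, tanning, chitin and the Osiris family, with grh overexpression in red, grh mutant in blue and wild type in grey; short bars mark the group means (n = 2 arrays) and the dashed line the minimum of 4. Most genes shown are highest in grh overexpression, y and reb are highest in grh mutant, and Osi15 is nearly level.

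Chitin is built from sugar through the hexosamine route and then spun out by chitin synthase. Of 7 tested genes of this route 4 were higher and 1 lower, with a median of 1.43, and all were measured in both groups. Gfat1, whose probe sets disagreed, is among the 4 by its brighter probe set. Gnpnat, the acetyltransferase of the route, read 10.95 and 10.91 in grh overexpression, 6.42 and 6.28 in grh mutant and 9.01 and 8.91 in wild type (log2 difference 4.58 ± 0.06), and its second probe set gave 4.54. The later enzyme gene mmy (mummy), which makes the activated sugar, read 10.16 and 10.10 in grh overexpression, 8.66 and 8.75 in grh mutant and 10.67 and 10.67 in wild type. The chitin synthase gene kkv read 10.55 and 10.54 in grh overexpression, 8.74 and 8.74 in grh mutant and 9.30 and 9.29 in wild type. Grh overexpression lay above grh mutant in each, while wild type was the highest group for mmy.

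Gfat1, the first and limiting enzyme, did not read one way. Its brighter probe set read 11.37 and 11.37 in grh overexpression and 8.60 and 8.63 in grh mutant, against 11.60 and 11.56 in wild type. Its other probe set was dim in grh overexpression at 2.76 and 2.98 and read 5.12 and 5.08 in grh mutant. The gene was thus called at least 2-fold changed in opposite directions by its probe sets. The gene reb (rebuff), whose protein helps deposit chitin, was the member that fell, at 6.96 and 6.73 in grh overexpression, 9.25 and 9.31 in grh mutant and 8.19 and 8.12 in wild type, and its relative exp fell by 0.31.

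Genes that shape chitin and assemble the cuticle went both ways. Of 31 tested 11 were higher and 5 lower, with a median of 0.01, and 4 passed through grh overexpression only. The chitin organiser knk read 8.76 and 8.79 in grh overexpression, 5.06 and 5.01 in grh mutant and 6.51 and 6.56 in wild type (log2 difference 3.74 ± 0.06). The chitinase gene Cht2 rose by 3.79 and Cht5 by 2.57 on the log2 scale, Cht10 was at least 11.9-fold higher, and Cht6 and Cht7 fell by 1.71 and 1.5. The chitin-binding protein genes obst-B and obst-F rose by 3.24 and 2.38. The chitin deacetylase genes serp and verm differed by 0.01 and -0.03 and were not called. Of 6 listed genes of imaginal disc growth factors, relatives of chitinases, Idgf5 and Idgf1 fell by 2.28 and 1.15, Idgf2, Idgf4 and Idgf6 by 0.83, 0.49 and 0.41, and Idgf3 differed by -0.04 and was not called.

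Structural cuticle proteins held some of the largest changes in both directions. Of 42 tested genes named Cpr, for the chitin-binding consensus they share, 13 were higher and 17 lower, with a median of -0.62. Of these 42, 6 passed through grh overexpression only and 3 through grh mutant only, and of the 33 measured in both 7 were higher and 14 lower. Those measured in both with the largest increases were Cpr47Eb at 9.51 and 9.45 in grh overexpression and 5.14 and 5.13 in grh mutant, and Cpr66Cb, with a log2 difference of 2.87. After Cpr49Ag, the largest decreases were Cpr78Cb at 6.89 and 6.83 in grh overexpression and 11.0 and 10.99 in grh mutant, Cpr92F at -3.33 and Cpr11A at -3.30. The groups did not overlap for these genes, and neighbours in name did not always share a direction: Cpr49Af rose by 1.27 while Cpr49Ag fell by 5.15.

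The Tweedle proteins and the older larval and pupal cuticle families also held changes in both directions. Of 35 tested 6 were higher and 14 lower, with a median of -0.49, and 4 passed through grh overexpression only and 3 through grh mutant only. Among the 28 measured in both groups 3 were higher and 11 lower. TwdlO was at least 9.68-fold higher, and TwdlP and TwdlT rose by 2.65 and 2.16 on the log2 scale, while TwdlC and TwdlW fell by 2.69 and 2.39. TwdlF, TwdlG, TwdlM and Acp65Aa each differed by less than 0.1 and were not called. Edg91 and Edg84A were found as ecdysone-dependent genes. Edg91 rose by 2.62, and Edg84A, dim in grh mutant, was at least 2.81-fold higher.

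The Osiris family, membrane proteins of cells that secrete cuticle, moved to the high side. Of 23 genes on the array 15 were tested, and 11 were higher and none lower, with a median of 2.10, though 6 passed through grh overexpression only. Among the 9 measured in both, 5 were higher and the median was 1.51. Osi7 read 11.19 and 11.07 in grh overexpression, 7.18 and 7.14 in grh mutant and 5.86 and 5.75 in wild type (log2 difference 3.97 ± 0.06). Osi6 read 13.21 and 13.15 in grh overexpression, 11.68 and 11.66 in grh mutant and 11.28 and 11.25 in wild type. Both were highest in grh overexpression and lowest in wild type, with no overlap. Osi15 was bright in every group and differed by 0.01, which was not called, and Osi18 fell by 0.29.

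The zona pellucida domain proteins link the epidermal surface to the matrix above it. The list of 14, which also holds sha, mas and trn, genes of other protein types, had 7 higher and 3 lower members and a median of 1.13. Of these, 3 passed through grh overexpression only, and the median of the 11 measured in both groups was 0.32, with 4 higher and 3 lower. The gene mey (morpheyus) read 8.76 and 8.59 in grh overexpression, 5.0 and 4.86 in grh mutant and 5.99 and 6.04 in wild type, and dyl (dusky-like) rose by 2.55. The gene zye fell, at 4.18 and 4.07 in grh overexpression, 8.31 and 8.30 in grh mutant and 6.59 and 6.44 in wild type (log2 difference -4.18 ± 0.08). The giant matrix protein gene dpy (dumpy) fell by 0.92, and pio (piopio) by 1.05. Of 7 regulators of denticles, the small hooks of the cuticle, sha and the actin bundling genes sn and f were higher. Mical was lower, and the median was 0.21. Among the higher ones sha passed through grh overexpression only.

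Genes of the septate junctions, which seal the epidermis, leaned low. All 29 on the array were measured in both groups, and 8 were lower and none higher, with a median of -0.26; at any size 20 were called lower and 5 higher. The gene bark (bark beetle), of the corners where several cells meet, read 5.92 and 5.70 in grh overexpression, 7.62 and 7.55 in grh mutant and 5.72 and 5.92 in wild type. The claudin gene sinu read 9.34 and 9.30 in grh overexpression, 10.44 and 10.41 in grh mutant and 9.99 and 9.96 in wild type. Grh mutant was the highest group for both, and wild type overlapped grh overexpression for bark. The genes pasi2, hoka, Cont and Nrx-IV fell by 1.80, 1.60, 1.5 and 1.07 on the log2 scale. The polarity gene scrib was counted as lower, but its 5 tested probe sets that changed at least 2-fold went both ways, 4 of them down and 1 up.

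Adherens junction genes changed little beside these. Of 17 tested 1 was higher and none lower, with a median of 0.05, and the cadherin gene shg differed by 0.18 and was not called. Of 21 genes of the basement membrane and its integrins 1 was higher and 3 lower, with a median of -0.35, and trol (perlecan) and if, an integrin alpha chain that muscles use, fell by 1.94 and 1.92. Of 20 tracheal genes 9 were lower and 1 higher, with a median of -0.98, and 1 passed through grh overexpression only and 2 through grh mutant only. Among them knrl fell by 2.49 and salm by 1.73, while serp, verm and Gasp, which build the tracheal lining, differed by less than 0.1.

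Genes of wounding and of the JNK kinase pathway had no common direction. Of 17 tested 4 were higher and 3 lower, with a median of -0.06. Gadd45, a stress gene, read 8.92 and 8.87 in grh overexpression, 4.60 and 4.87 in grh mutant and 6.33 and 6.15 in wild type, and the receptor gene grnd was at least 8.17-fold higher. The phosphatase gene puc, a pathway target that restrains JNK, read 7.48 and 7.53 in grh overexpression, 8.86 and 8.87 in grh mutant and 7.49 and 7.37 in wild type, so that the mutant alone stood apart. Of 12 earlier described Grh targets 3 were higher (knk, Ddc and kkv) and 1 lower (sinu), with a median of -0.03. The other members held cora at -0.58, crb at -0.56, dpp at -0.90, en at -0.93 and PCNA at -0.23, and on the other side msn at 0.70 and CycE at 0.25, each called but under 2-fold.

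Immune genes leaned high. Of 27 tested 12 were higher and 2 lower, with a median of 0.84, and 5 passed through grh overexpression only, so that among the 22 measured in both 8 were higher, 2 were lower and the median was 0.13. Several of the higher genes belong to the extracellular part of the Toll pathway, in which recognition proteins start a chain of proteases that ends at the ligand of Toll. SPE, the last protease of the chain, read 10.61 and 10.58 in grh overexpression, 6.10 and 5.97 in grh mutant and 6.40 and 6.42 in wild type (log2 difference 4.56 ± 0.06). The protease gene grass rose by 4.01, psh, another protease gene, was at least 7.39-fold higher, and GNBP3, a sensor of fungi, was at least 20.2-fold higher. Further along the pathway the kinase gene pll (pelle) rose by 2.48 and the receptor gene Tl by 1.30, while dl, spz, cact and Rel each differed by less than 0.1 and were not called.

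Among antimicrobial peptide genes the direction differed. Drs (drosomycin) read 6.74 and 6.66 in grh overexpression, 4.70 and 4.50 in grh mutant and 3.42 and 3.03 in wild type. Its relative Drsl5 read 7.06 and 6.88 in grh overexpression, 10.60 and 10.58 in grh mutant and 8.82 and 8.68 in wild type. The intracellular sensor gene PGRP-LE also fell, by 2.23 on the log2 scale. Drs was higher and Drsl5 lower in grh overexpression than in grh mutant, with no overlap in either.

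Ecdysone is the steroid that times cuticle formation and moults. Of 23 tested genes of its synthesis, reception and response 8 were higher and 5 lower, with a median of -0.16. The higher ones were ImpE2, ImpL1, ImpE3, ImpL2, Edg84A, Edg91, E23 and sro, of which ImpE3, Edg84A, E23 and sro passed through grh overexpression only; 2 others of the 23 passed through grh mutant only. The Imp and Edg genes were found as ecdysone-inducible. ImpL1 read 10.44 and 10.34 in grh overexpression, 4.81 and 4.74 in grh mutant and 5.96 and 6.0 in wild type, and ImpE3 was at least 6.88-fold higher. Tested transcription factors of the response were lower or were not called. The gene br (broad) fell by 1.66, Eip78C by 2.10 and EcR, the receptor itself, by 0.46 on the log2 scale, the last under 2-fold, while usp, its partner, and ftz-f1 differed by -0.16 and -0.0041 and were not called.

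Genes of cell division, whose products do not build cuticle, stood at the high end as well. Of 27 tested 16 were higher and none lower, with a median of 2.0, and 7 passed through grh overexpression only, so that among the 20 measured in both 10 were higher and the median was 1.07. CycB, a mitotic cyclin, read 10.87 and 10.91 in grh overexpression, 5.33 and 5.42 in grh mutant and 9.02 and 8.91 in wild type (log2 difference 5.52 ± 0.06, limma adjusted p = 1.3e-14). CycB3, another mitotic cyclin, read 10.50 and 10.54 in grh overexpression, 5.32 and 5.22 in grh mutant and 8.47 and 8.46 in wild type. The gene borr (borealin), of the complex that guides chromosomes in mitosis, read 10.53 and 10.50 in grh overexpression, 4.53 and 4.72 in grh mutant and 8.18 and 8.16 in wild type. In all 3 the groups did not overlap and wild type lay between the others, nearer to grh overexpression.

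Others of the list had the same direction. The securin gene pim was at least 33.2-fold and the cytokinesis gene tum at least 32.5-fold higher, and fzy, which activates the ligase that ends mitosis, rose by 4.13. Among genes that govern entry into the cycle, CycD rose by 2.13 and CycE by 0.25, Cdk4, E2f2 and Dp differed by -0.07, -0.08 and -0.04 and were not called, and Rbf fell by 0.23. The gene fzr, which helps cells leave the cycle, fell by 0.89. Of 22 tested DNA replication genes 9 were higher and none lower, with a median of 0.80, or 0.25 over the 18 measured in both groups, of which 7 were higher. The licensing factor dup rose by 3.79 and Cdc6 by 2.88, while PCNA, the sliding clamp, fell by 0.23, and Mcm2 differed by 0.10 and was not called. CycE and Rbf lost their call without grh overexpression replicate 2, at 0.13 and -0.13, or without either grh mutant array. PCNA lost its call without either grh overexpression array or without grh mutant replicate 1, at -0.13 in the last.

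Transcripts that the mother loads into the egg had no common direction. Of 26 such genes on the array 16 were tested, and 7 were higher and none lower, but 8 passed through grh overexpression only, so that their direction was fixed, and 10 were under 4 on all 6 arrays. Among the 8 measured in both groups 1 was higher and the median was -0.34, and stau and tud fell by 0.72 and 0.94. The anterior determinant bcd (bicoid) read 8.32 and 8.38 in grh overexpression, 2.53 and 2.41 in grh mutant and 6.27 and 6.22 in wild type. The gene plu, needed for the first nuclear divisions, read 7.42 and 7.34 in grh overexpression, 2.27 and 2.86 in grh mutant and 5.11 and 4.93 in wild type. Outside that list, the maternal thioredoxin gene dhd read 8.05 and 7.99 in grh overexpression, 4.03 and 3.87 in grh mutant and 6.90 and 6.86 in wild type. All 3 were highest in grh overexpression and lowest in grh mutant, where bcd and plu were dim. The linear values of the list summed to 2773 and 2782 in grh overexpression and to 2202 and 2171 in grh mutant, against 2274 and 2224 in wild type. The part of maternal transcripts in the mitotic result was not tested.

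**Figure D4:**
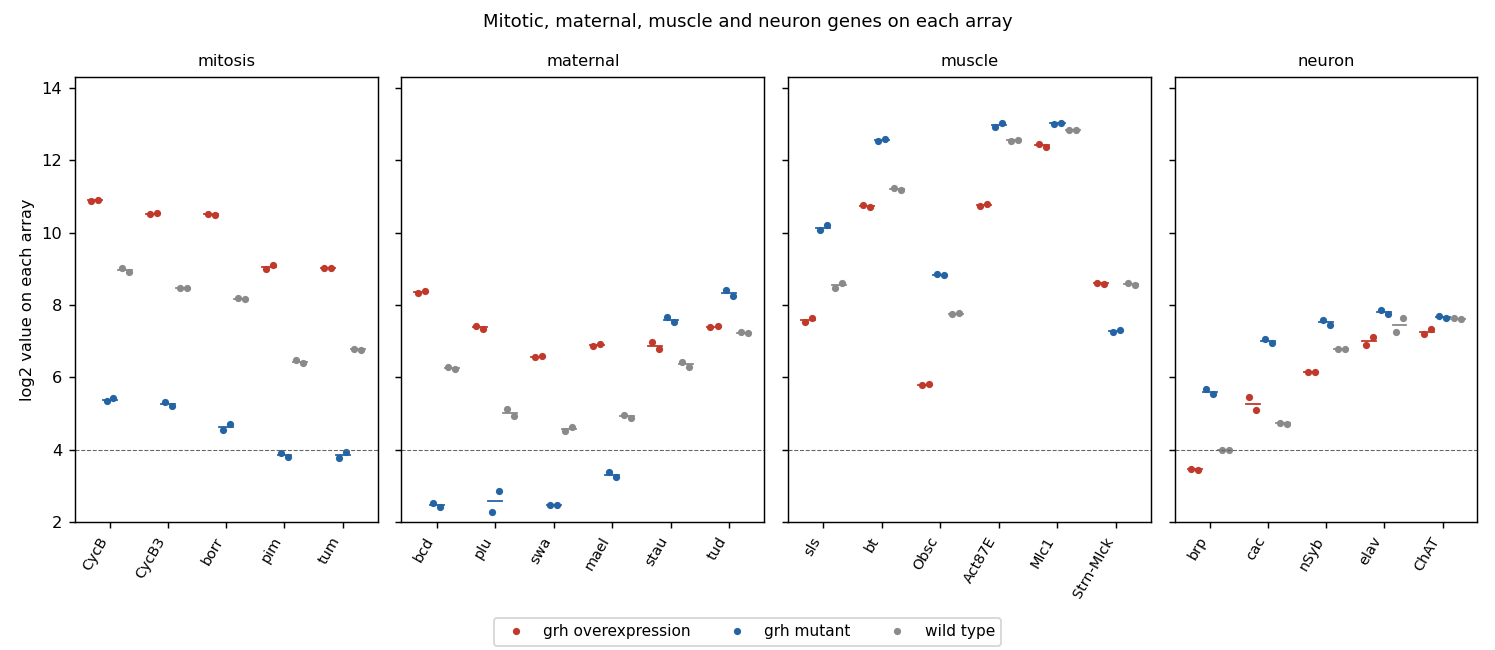
Log2 value on each array of genes of mitosis, maternal transcripts, muscle and neurons, with grh overexpression in red, grh mutant in blue and wild type in grey; bars mark group means (n = 2 arrays) and the dashed line the minimum of 4. The mitotic genes and bcd, plu, swa and mael are highest in grh overexpression, stau, tud and nearly all muscle and neuron genes are highest in grh mutant, and Strn-Mlck is lower there than in the other groups.

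Whole embryos also hold muscle and nerve, and markers of both were lower in grh overexpression. Of 24 muscle genes on the array 4 were under the minimum on every array, and of 21 neuron genes none was. Of 20 tested muscle genes 14 were lower and 1 higher, with a median of -1.59. Over the 19 measured in both groups 13 were lower and 1 higher, with a median of -1.40. The giant sarcomere gene sls read 7.54 and 7.63 in grh overexpression, 10.06 and 10.22 in grh mutant and 8.46 and 8.62 in wild type (log2 difference -2.56 ± 0.07). Obsc, another giant muscle protein gene, read 5.77 and 5.81 in grh overexpression, 8.84 and 8.82 in grh mutant and 7.74 and 7.76 in wild type. The muscle actin gene Act87E read 10.72 and 10.80 in grh overexpression, 12.93 and 13.03 in grh mutant and 12.55 and 12.56 in wild type. Each was lowest in grh overexpression and highest in grh mutant.

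The linear values of the muscle list summed to 38392 and 37947 in grh overexpression and to 75260 and 76912 in grh mutant, against 62873 and 61915 in wild type. Fewer muscle cells and less of these transcripts in each cell cannot be told apart in whole embryos. At any size 18 of the 20 were called lower, and the exceptions were Strn-Mlck, a kinase gene, which rose by 1.32, and Mlp84B, which differed by 0.002 and was not called.

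Every tested neuron marker fell. Of 20 tested 20 were called lower at any size, 11 of them at least 2-fold, with a median of -1.04. The synapse gene brp was at least 3.04-fold lower, being dim in grh overexpression, and the calcium channel gene cac read 5.46 and 5.08 in grh overexpression, 7.05 and 6.95 in grh mutant and 4.74 and 4.71 in wild type. The neuron-wide gene elav fell by 0.79, less than the synaptic vesicle gene nSyb at 1.37. The linear values of the list summed to 5553 and 5768 in grh overexpression and to 10182 and 10595 in grh mutant, against 6617 and 6895 in wild type. The sums were highest in grh mutant, and those in wild type lay nearer to grh overexpression.

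Other tissues were less uniform. Of 13 glia markers 4 were lower and none higher at 2-fold, 1 of the 4 through grh mutant only. At any size 8 were called lower and 4 higher. The gene moody, a receptor of the blood-brain barrier, read 5.81 and 5.71 in grh overexpression, 8.82 and 8.82 in grh mutant and 6.26 and 6.33 in wild type. The gene repo, which marks nearly all glia, fell by 0.40, and Gli (gliotactin), mdy, loco and Tret1-1 rose by 0.94, 0.85, 0.80 and 0.73. The glia list and its counts include mdy (midway), although it is not a marker of glia. Of 15 hemocyte markers 4 were lower and none higher, 1 of the 4 through grh mutant only. At any size 10 were called lower and 3 higher, 1 of the 3 through grh overexpression only. The lower ones held the prophenoloxidase genes PPO1 and PPO2 at -1.02 and -1.30. Of 9 fat body markers 1, which passed through grh overexpression only, was higher and 2 were lower, with 7 called lower and 2 higher at any size. Of 10 salivary gland markers 1 was higher and 4 were lower at 2-fold, 1 of the 4 through grh mutant only, while 5 were called higher and 4 lower at any size. Midgut markers had 5 higher and 9 lower of 31, or 3 and 6 of the 24 measured in both groups, and their linear sums, 14450 and 14114 in grh overexpression and 14898 and 14518 in grh mutant, lay close together. The midgut members with the largest changes among those measured in both groups were Mdr49, a transporter gene, at 3.45, and Mal-A5, a maltase gene, at -2.57.

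Regulators of epidermal and body pattern were mostly lower. Apart from grh itself, 23 transcription factor genes of the epidermis were tested, and none was higher and 10 were lower at 2-fold. Among the 10, 2 passed through grh mutant only and 8 were measured in both groups. At any size 21 were called lower, and the median with grh included was -0.91. The Iroquois gene mirr read 5.06 and 5.15 in grh overexpression, 7.18 and 7.02 in grh mutant and 5.26 and 4.86 in wild type. The POU factor gene vvl, which also acts in the trachea, read 6.60 and 6.86 in grh overexpression, 8.15 and 8.44 in grh mutant and 7.76 and 7.85 in wild type, and its second probe set gave a difference of -2.56. The pnr gene rose by 0.62, under 2-fold. Of 4 tested homeotic genes 4 were called lower at any size, with Dfd at -1.77, Antp at -1.34, tsh at -1.14 and Scr at -0.86. That list held only these and pb, which was not tested, so it does not stand for the homeotic genes as a whole.

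Few signalling genes changed at least 2-fold. Of 21 genes of the Wnt, Hedgehog, Dpp, EGFR and Notch pathways 1 was higher and 2 lower, with a median of -0.32. The Hedgehog effector ci read 7.17 and 7.09 in grh overexpression, 8.89 and 9.15 in grh mutant and 8.39 and 8.37 in wild type, and Egfr, a receptor, fell by 1.33. Mad, which carries the Dpp signal to the nucleus, rose by 1.48.

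Few genes of the ribosomes, the respiratory chain and the proteasome changed at least 2-fold. All tested genes of this paragraph were measured in both groups, where 15.1% of all genes were higher and 15.6% lower at 2-fold. Of 34 genes of cytosolic ribosomal proteins none was changed at least 2-fold, with a median of 0.12 and values from -0.58 to 0.72. Of 69 of the mitochondrial ribosome none was higher and 6 were lower, with 19 called higher and 36 lower at any size. Of 53 of the respiratory chain and ATP synthase none was higher and 2 were lower, with 8 called higher and 34 lower at any size. Of 26 proteasome subunits 2 were higher and 1 lower, with 16 called higher and 6 lower at any size. Of 31 genes that move proteins into and through the secretory route 24 were called higher at any size, 5 of them at least 2-fold, and 4 were called lower, with a median of 0.57. The cargo receptor gene loj read 10.76 and 10.76 in grh overexpression, 8.45 and 8.33 in grh mutant and 9.79 and 9.84 in wild type. Subunits of the vacuolar proton pump leaned down, with none higher and 5 lower of 20 and a median of -0.58.

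Among metabolic genes single members changed. Pepck2 and fbp, of glucose synthesis, rose by 3.22 and 2.23, and Gapdh1, of glycolysis, fell by 1.63 among 15 genes of these pathways. Of 17 genes for fatty acids, their elongation and surface wax 1 was higher and 6 lower, 2 of the 6 through grh mutant only. Among them sit, a gene of fatty acid elongation, read 5.88 and 5.59 in grh overexpression, 9.55 and 9.55 in grh mutant and 7.17 and 7.02 in wild type, and Cyp4g1, of hydrocarbon wax synthesis, read 6.45 and 6.42 in grh overexpression, 9.06 and 9.03 in grh mutant and 8.67 and 8.55 in wild type. Both were lowest in grh overexpression with no overlap. Among 13 chaperone genes the small heat shock gene Hsp26 had the largest increase, at 12.70 and 12.59 in grh overexpression, 8.26 and 8.19 in grh mutant and 10.40 and 10.28 in wild type, while Hsp27 rose by 0.23, a call lost without grh overexpression replicate 2, and Hsp68 fell by 0.82.

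The remaining lists were small. Of 11 genes of peroxiredoxins and antioxidant enzymes 2 were higher, dhd and the superoxide dismutase gene Sod3, and none lower. Of 14 genes of lipocalins and lipid transport 1 was higher and 2 lower, with Npc2b at 1.77 and the lipocalin gene NLaz at -1.27. Of 14 genes of Jonah and trypsin-like gut proteases 1 was higher and 2 lower, or 1 and 1 of the 12 measured in both groups. Of 8 mucin and peritrophin genes none was higher and 5 were lower, 2 of the 5 through grh mutant only. Muc26B read 4.40 and 4.49 in grh overexpression, 8.68 and 8.77 in grh mutant and 4.63 and 4.80 in wild type. For Muc26B the mutant alone stood far apart.

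Genes that lie next to each other sometimes moved together. With 7567 tested genes placed in their order along the chromosomes, 12 runs of at least 5 neighbours were all changed at least 2-fold one way, 5 of them higher and 7 lower. The longest, on chromosome arm 3R, held 11 genes that were higher: Obp83ef, Obp83g, CG31559, Osi1, NPFR, Osi24, Osi2, Osi3, Osi5, Osi6 and Osi7. Its members did not all belong to the Osiris family, since Obp83ef and Obp83g encode odorant-binding proteins and NPFR a neuropeptide receptor, and 4 of the 11 were dim in grh mutant. Obp83g read 11.14 and 11.06 in grh overexpression, 9.43 and 9.43 in grh mutant and 11.42 and 11.28 in wild type, and NPFR read 7.24 and 7.13 in grh overexpression, 5.67 and 5.70 in grh mutant and 5.82 and 5.61 in wild type. Grh overexpression lay above grh mutant in both, and for Obp83g wild type was the highest.

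A run of 6 on 2R held Bomanin genes, which encode short defence peptides that Toll controls: BomS4, BomBc2, BomS2, BomT2, BomS5 and BomS6. Of these 4 were dim in grh mutant, and BomS2, measured in both, read 9.96 and 10.11 in grh overexpression, 6.13 and 6.11 in grh mutant and 5.63 and 5.60 in wild type. Bomanin genes resemble one another, so probe sets may share signal. Another run of 5 on 2R joined Listericin, an antibacterial gene, to CG34227, Cpr47Ea, Cpr47Eb and Cpr47Ec, and 4 of the 5 were dim in grh mutant, so that the filter fixed their direction. A pair of lower runs, of 8 genes each, lay on 3L. The first held CG4962, CG13044, CG13043, CG13063, CG13042, CG13041, CG13060 and CG13059, all measured in both groups, with CG13043 at 10.01 and 9.91 in grh overexpression and 12.21 and 12.16 in grh mutant. The second held the septate junction gene hoka among CG13707, CG32237, CG13705, Rh50, Con, CG15212 and CG15213, of which 3 were dim in grh overexpression. A lower run of 5 on 3R held puc, and 3 of its members were dim in grh overexpression.

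**Figure D5:**
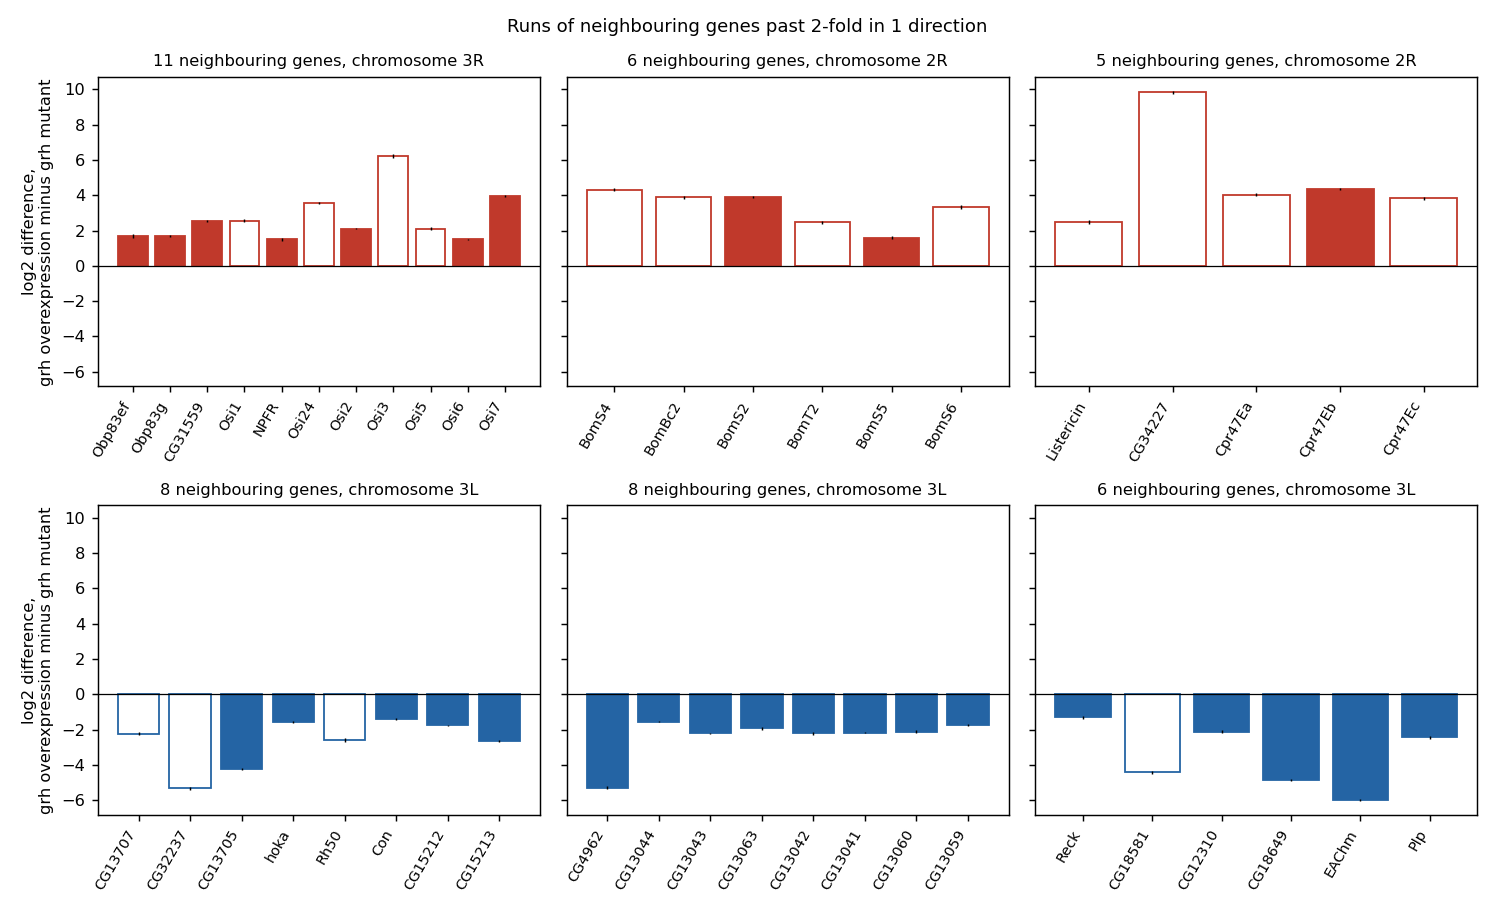
Log2 difference, grh overexpression minus grh mutant, of the genes in 6 of the 12 runs of neighbours changed at least 2-fold in 1 direction, in chromosome order, with error bars of 1 SE (n = 2 arrays each). Filled bars were measured in both groups and open bars passed the minimum through 1 group only; the bars of the Osiris run of 11 on 3R and the Bomanin run of 6 on 2R lie above 0, 4 of them open in each, and those of the 3 runs on 3L lie below 0.

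Where a gene had several probe sets, they mostly moved one way. Of 398 genes with at least 2 tested probe sets, 137 had at least 2 that changed 2-fold or more, and in 128 of these the direction was the same. In the other 9 genes, Cbl, Gfat1, Glut1, Pi3K68D, ReepA, Srrm234, lola, scrib and spri, probe sets went both ways. Cbl, a ubiquitin ligase gene, read 9.20 and 9.17 in grh overexpression and 7.08 and 6.79 in grh mutant on one probe set, and 4.32 and 4.38 in grh overexpression and 6.54 and 6.48 in grh mutant on the other. The transcription factor gene lola, known for its many splice forms, had 2 probe sets up, by as much as 3.36, and 3 down. Which transcripts these probe sets read was not determined here, so no direction is given for these genes as wholes, and where a list holds one (Gfat1 and scrib) its count rests on the brightest probe set alone.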

How the data were processed

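RNA from whole stage 16 embryos of 3 genotypes was measured on 1-colour Affymetrix arrays, 2 for each genotype. Per the labels' protocols, Trizol extraction and DNase were followed by reverse transcription from random primers and a biotin label. The authors deposited log2 values, 1 for each probe set and array, which ran from a floor of 2.27 to 14.1. The log2 scale was read from the values. The submitters' processing notes name GCRMA and MAS5 and give neither role nor version. The deposited values were used as they stand, and scanner files were not used here.

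Of 18952 probe sets 183 were array controls. In the platform annotation 13647 of the others had 1 gene symbol, 402 had several and 4720 had none. Of the symbols 13544 were brought up to date through a RefSeq gene table (Release 6 plus ISO1 MT), which also gave the order of neighbouring genes. With limma 3.58.1 (R 4.3.3), a model with 1 mean for each genotype was fitted over the 6 arrays (lmFit, eBayes with an intensity trend), which left 3 residual degrees of freedom and a prior of 7.73. P-values are two-sided and Benjamini-Hochberg adjusted over the 9088 probe sets tested. A probe set with both arrays of a group under 4 was dim in that group. In the lists a gene was represented by the tested probe set that was brightest on average in the comparison. Levels of different probe sets were not compared, apart from the 3' and 5' control readings and the choice of the brightest probe set. The linear sums of lists add the levels of different probe sets, so that the brightest members weigh most in them. On simulated data with 200 changed probe sets among 9088, the same fit recovered 196 and made 3 false calls. The simulation changed a far smaller share than the 86.8% called here, so it gives no rate of false calls for this comparison.

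The comparison, the 46 gene lists and the rule for named genes were chosen with earlier results of these data known. The rule took grh, the 20 largest increases and decreases measured in both groups, the 10 largest bounds each way, list members with the largest changes or a described role, runs of neighbours and genes whose probe sets disagree. The number of arrays limits the precision.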

Additional observations from a re-analysis of the deposited data

How the results depend on the processing

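The counts of probe sets were recomputed under 14 alternatives: the 4 arrays alone, the replicate number as a block, no minimum, a minimum of 5, no intensity trend, quantile normalization, median centring, 1 probe set a gene before the fit, and each of the 6 arrays left out in turn. All 4 counts stayed within 1.5 times their values in each of them. The 415 named and listed genes that changed at least 2-fold kept their direction and their side of the adjusted p threshold in all 5779 values, though some crossed 2-fold, as the counts below show. These 415 were picked for large changes in the same data, and the filter fixed the direction of those dim in 1 group. Their stability was thus largely set by the choice and is no independent support. Of all 994 named and listed genes, at any size, 825 kept both direction and side of the threshold. The other 169 did not in at least 1 alternative, the largest of them with a log2 difference of 0.70. Among these 169, 10 values turned. Median centring gave Mlp84B -0.0948, Osi15 -0.0871, serp -0.0858, COX5B -0.0887, RpL3 -0.0757, RpLP1 -0.0810, levy -0.0799, RpL37A -0.0138 and RpL32 -0.0023, against values above 0, and quantile normalization gave Cpr47Eg 0.0170, against one below 0. With the replicate block 3902 probe sets were called higher and 4156 lower, and 1666 and 1692 at 2-fold or more. Arrays of the same number deviated together at a correlation of 0.13 from grh overexpression to grh mutant, and of 0.26 and 0.15 from these 2 to wild type, and in the 4 control readings the difference between the numbers had the same sign in all 3 groups. With 2 numbers, and no label of a shared batch, a pairing was not established. Centring each array on its median moved the median log2 difference by -0.10 and left 43.5% of calls higher, against 48.4% without it.

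Counts within the lists moved by over 1.5 times in 27 of 1288 values, all in counts of 5 or fewer but 1: the number of P450 genes at least 2-fold higher was 11 with a minimum of 5, against 17. Under median centring 3 secretory pathway genes were higher in place of 5, 4 signalling genes lower in place of 2, 3 tanning genes lower in place of 1 and 3 earlier described Grh targets lower in place of 1. Without grh overexpression replicate 1, or without grh mutant replicate 2, 1 septate junction gene and 1 glia marker were at least 2-fold higher, where none had been. Without grh overexpression replicate 2, 2 tanning genes, 2 earlier described Grh targets, 2 glycolysis genes and 1 fat body marker were lower, and 1 chaperone gene was higher. Without grh mutant replicate 1, 2 Grh targets were lower and 1 chaperone gene and 1 mucin gene higher, and without grh mutant replicate 2, 2 tanning genes, 1 fat body marker and 1 maternal gene were lower. The cause of these moves was not tested.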

Other observations

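Detoxification genes, not described above, moved both ways. Of 49 tested cytochrome P450 genes 17 were higher and 13 lower in grh overexpression than in grh mutant, against 19.1% and 17.5% of all tested genes, but 11 passed the minimum through grh overexpression only and 6 through grh mutant only. Of the 32 measured in both groups 6 were higher and 8 lower, against 15.1% and 15.6% of all genes so measured. Cyp305a1, measured in both groups, read 9.05 and 9.01 in grh overexpression and 4.81 and 4.75 in grh mutant, and Cyp18a1, which breaks down ecdysone, fell by 1.80 on the log2 scale. Of 50 genes of glutathione and glucuronosyl transferases 17 were higher and 11 lower, or 13 and 9 of the 43 measured in both groups. This list pools both families, so its counts do not give the direction of either family alone. Among its glutathione transferases GstE11 and GstE5 stood at 3.08 and 2.73 and GstE10 at -2.31. Of 8 tested alkaline phosphatase genes Alp9, Alp1 and Alp10 were at least 87.7-fold, 27.0-fold and 9.47-fold higher, and none of the 4 measured in both groups changed 2-fold.

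Genes on the small chromosome 4 leaned low. Of 60 tested genes placed there 3 were at least 2-fold higher (5%) and 25 at least 2-fold lower (41.7%) in grh overexpression, with a median log2 difference of -0.77, and 7 passed the minimum through grh mutant only and 1 through grh overexpression only. On the other arms between 13.3% and 21.6% of genes were lower and between 16.6% and 21.7% higher. The gene ci, named above, was one of the 25. The pattern was noticed in these data, it has no test of its own, and no cause for it was tested.

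The probe set with the largest log2 difference of all carried no gene symbol in the platform annotation. It read 13.12 and 13.10 in grh overexpression, 2.31 and 2.27 in grh mutant and 8.60 and 8.54 in wild type. Of the 979 tested probe sets with no symbol or several, 164 were at least 2-fold higher (16.8%) and 166 at least 2-fold lower (17.0%).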
